A study of Rattus norvegicus with 23 samples.

Results

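A set of 10 immediate early transcription factor genes was followed across rat livers in which portosinusoidal vascular disease, a condition of the smallest hepatic vessels, was modelled by 2 treatments. They were chosen by symbol as the Fos, Jun and Egr families with Atf3 and Myc, and all 10 were found among the 28913 genes of the count table. RNA of whole liver from Sprague Dawley rats was sequenced as 23 libraries. The 10 Selfox libraries came from rats kept for 8 weeks on a diet enriched in selenium and given 8 weekly intravenous injections that combined 3 mg/kg oxaliplatin with 5-FU (25 mg/kg) and with 45 mg/kg of folinic acid. The 7 LPS libraries came from rats that carried a catheter into the portal circulation, placed by laparotomy under isoflurane, through which lipopolysaccharide was given at 1 mg/kg 2 times a week over 8 weeks. For the 6 Control libraries the labels give no treatment, and mention neither surgery nor catheter nor diet. Surgery and lipopolysaccharide cannot be told apart in LPS, nor diet and drugs in Selfox. Neither the time between the last injection and collection nor the hour of collection is given in the sources used here. Nothing in the labels says that each library is a different rat, so p-values measure the spread between libraries, which may be technical.

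Immediate early genes are transcribed soon after a cell receives a signal, without a need for new protein synthesis, and their messenger RNAs are short-lived. FOS proteins pair with JUN proteins to form the AP-1 factors, EGR proteins are zinc finger factors that bind GC-rich sites, ATF3 is a stress-induced member of the ATF/CREB family, and MYC pairs with MAX to drive genes of growth and ribosome production. In the liver these genes are known for their rapid induction after partial hepatectomy, by cytokines and growth factors, and by injury or handling of the tissue.

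The sequence next to the gene start differs between members in known signal-responsive elements. Windows of 250 bases before to 50 after the gene start, from RefSeq (build GRCr8), matched 5 of the 10 members, Fosb, Junb, Jund, Egr1 and Egr2. The build of the count table is not given in the sources used here, and the windows describe the genes rather than the counted features; those of Egr2 and Fosb lie at a start inside the outermost bounds of the annotated gene. Shown are the windows of Egr2 and Jund, which passed the test between groups in the comparisons given later, and of Egr1 and Junb, whose levels moved together from library to library. Capitals mark CArG boxes, the motif bound by serum response factor, TGACG on either strand, the core of the cyclic AMP response element, and TATAAA on either strand.
Egr1, chr18:26736828-26737127, plus strand: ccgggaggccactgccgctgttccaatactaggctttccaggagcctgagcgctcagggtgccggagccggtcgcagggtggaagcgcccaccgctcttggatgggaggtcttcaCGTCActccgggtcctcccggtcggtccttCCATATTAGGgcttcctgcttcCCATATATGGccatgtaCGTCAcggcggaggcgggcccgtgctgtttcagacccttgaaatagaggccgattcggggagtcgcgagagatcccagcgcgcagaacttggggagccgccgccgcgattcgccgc
Egr2, chr20:21054392-21054691, minus strand: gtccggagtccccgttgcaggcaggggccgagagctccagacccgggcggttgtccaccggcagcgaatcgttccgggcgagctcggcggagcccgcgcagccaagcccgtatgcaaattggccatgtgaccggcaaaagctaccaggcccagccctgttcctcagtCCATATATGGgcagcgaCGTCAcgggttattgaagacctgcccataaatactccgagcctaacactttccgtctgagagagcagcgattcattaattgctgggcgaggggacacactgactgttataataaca
Junb, chr19:40080876-40081175, plus strand: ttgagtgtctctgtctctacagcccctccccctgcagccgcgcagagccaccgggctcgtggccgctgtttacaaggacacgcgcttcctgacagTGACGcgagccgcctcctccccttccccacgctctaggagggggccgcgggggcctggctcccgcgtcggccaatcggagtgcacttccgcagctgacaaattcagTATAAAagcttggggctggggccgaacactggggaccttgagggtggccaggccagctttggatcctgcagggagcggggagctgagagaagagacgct
Jund, chr16:18769722-18770021, minus strand: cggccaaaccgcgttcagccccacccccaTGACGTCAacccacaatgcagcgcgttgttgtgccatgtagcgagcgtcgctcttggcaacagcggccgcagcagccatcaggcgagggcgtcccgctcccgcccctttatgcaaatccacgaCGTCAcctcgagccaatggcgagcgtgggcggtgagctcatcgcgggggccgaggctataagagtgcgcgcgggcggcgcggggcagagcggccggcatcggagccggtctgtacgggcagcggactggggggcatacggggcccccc

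The Egr1 window held 2 CArG boxes and the Egr2 window held 1, and a box with the same letters started at base -83 in both. A CArG box was found in 1.64% of all 33469 windows. No CArG box was in the Junb, Jund or Fosb window. The full cyclic AMP response element TGACGTCA stood once in Jund, at base -221, where it takes in 2 of the 3 TGACG matches of that window; 1.83% of all windows hold it. TGACG itself was in the Egr1 window 2 times and in the Egr2 and Junb windows once each, against 21.2% of all windows that hold it. The EGR motif GCGTGGGCG was found in the Jund window alone of the 5 (0.544% of all windows), and the AP-1 motif TGANTCA (7.33%) and the MYC/MAX motif CACGTG (6.42%) in none of the 5, with both strands searched. TATAAA (14.2% of all windows) was found in Junb and Fosb. These are matches of letters and not measured binding.

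The libraries held 65.1 to 74.8 M (mega) counts in Selfox, 70.4 to 79.2 M in LPS and 31.9 to 53.8 M in Control. Summed hepatocyte markers took 115000 to 142000 counts per M (CPM) in Selfox, 99900 to 173000 in LPS and 140000 to 221000 in Control, and so were abundant in every group. Of these 8 markers 3 were called lower and 1 higher in Selfox than in Control. Summed Kupffer cell and macrophage markers stood at 260 to 408 CPM in Selfox, 633 to 977 in LPS and 730 to 1000 in Control, and all 10 of them were called lower in Selfox than in Control. Summed stellate cell and smooth muscle markers stood at 139 to 219 CPM in Selfox, 120 to 165 in LPS and 114 to 149 in Control, with 4 of 8 called higher in Selfox than in Control. Summed cholangiocyte markers stood at 12.8 to 22.4 CPM in Selfox, 12.4 to 17.5 in LPS and 7.22 to 12.6 in Control, with 2 of 6 called higher in Selfox and 3 of 6 in LPS than in Control. Summed T and NK cell markers stood at 3.74 to 6.29 CPM in Selfox, 7.63 to 11.5 in LPS and 5.41 to 7.47 in Control, with 6 of 6 called lower in Selfox than in LPS. Of all genes 14.2% were called higher and 14.9% lower in Selfox against Control. The share called higher in LPS against Control was 7.71%, and that called lower in Selfox against LPS was 7.64%. In whole tissue, fewer cells of a type and less RNA per cell cannot be told apart, and the part of these cell types in the results given here was not tested. Control 40 and Control 52 stood apart in the members: 8 of the 10 members were among the 2 highest controls in each of these 2 libraries. The output gene Dbp of the circadian clock exceeded the core clock gene Arntl in 5 libraries, Selfox 8, LPS 5, LPS 6, LPS 7 and Control 55. In Selfox 8 the 2 genes were nearly level, both at 3.35 log2 CPM. Where a call is lost without these 5 libraries, clock state and the smaller number of libraries cannot be told apart.

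In Selfox livers Egr2, Myc and Jund were higher than in controls, by 1.47-fold for Jund to 3.73-fold for Egr2. Egr3 was called there as well, but it entered the test through its Selfox values. In LPS livers Jund was higher and Fosb lower than in controls. The classical responders Fos, Jun, Junb, Egr1 and Atf3 passed the test in none of the 3 comparisons, and each spread over a range of 2.0-fold to 14.4-fold within every group. With edgeR's quasi-likelihood test fitted on all 15079 genes that passed a filter on low counts, and Benjamini-Hochberg adjustment with a threshold of 0.05, 4 of 10 members were called in Selfox against Control, all higher, where 29.1% of all genes were called (14.2% higher, 14.9% lower). In LPS against Control 2 of 10 were called, where 14.7% of all genes were (7.71% higher, 6.99% lower). Between Selfox and LPS 4 of 10 were called, all higher, where 14.5% of all genes were (6.86% higher, 7.64% lower). Egr3, described below, was tested because of its high Selfox values and is not counted as support; of the other 9 members 3 were called in each comparison with Selfox. In the 2 comparisons with Control these shares were near the background. The median log2 fold change of the members, Egr3 included, was 0.63, 0.30 and 0.50 in the 3 comparisons, in that order, and that of all genes 0.01, 0.01 and 0.00. With 1.52 and 2.0, Egr3 lay above the 2 medians with Selfox, which are thus not counted as support either. None of the members had groups without overlap in any comparison, which 4.91%, 3.64% and 1.74% of all genes had. The 3 comparisons share their libraries and are not independent of each other.

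**Figure D1:**
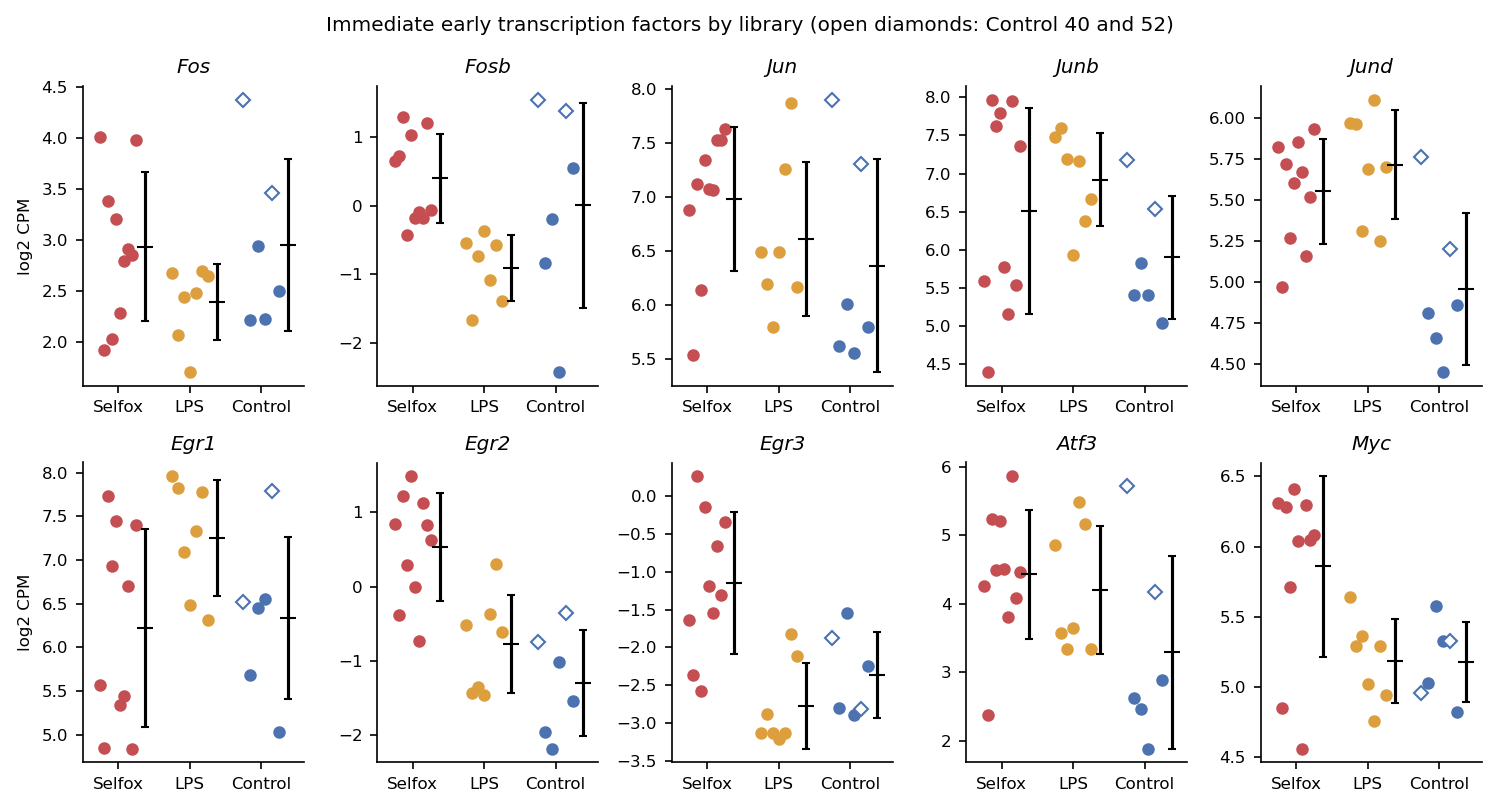
Each panel plots the log2 CPM of a member in every library of the Selfox, LPS and Control groups, with the group mean and SD beside the points; open diamonds are Control 40 and Control 52. The Selfox means of Fosb, Jun, Egr2, Egr3, Atf3 and Myc are the highest of the 3 groups. In Fos, Fosb, Jun, Junb, Jund, Egr2 and Atf3 the open diamonds are the 2 highest controls.

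Fos encodes the prototype partner of JUN in AP-1. It lay at 3.76, 7.34 and 16.1 CPM in Selfox (lowest, median and highest), at 3.22, 5.54 and 6.46 CPM in LPS and at 4.59, 6.62 and 20.8 CPM in Control. LPS libraries formed the narrowest of the 3 groups, and 7 of 10 Selfox libraries lay above every LPS library. The log2 fold change (± SE) of Fos was -0.08 ± 0.341 in Selfox against Control (adjusted p = 0.883), -0.76 ± 0.369 in LPS against Control (adjusted p = 0.173) and 0.68 ± 0.331 in Selfox against LPS (adjusted p = 0.182). All 7 LPS libraries lay at or below the control median, yet the spread between controls was as wide as this difference, which shrank to -0.32 without Control 40 (adjusted p = 0.568).

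Fosb, a Fos relative known in the brain for its long-lived short form, was the member that fell in LPS. It stood at 0.71, 1.23 and 2.44 CPM in Selfox, at 0.285, 0.57 and 0.74 CPM in LPS and at 0.154, 1.14 and 2.9 CPM in Control, from 6 to 178 counts a library. LPS livers thus lay low and close together, inside the range of the controls. The log2 fold change was -1.43 ± 0.452 in LPS against Control (adjusted p = 0.0352) and 1.43 ± 0.408 in Selfox against LPS (adjusted p = 0.0201), where 9 of 10 Selfox libraries lay above every LPS library; in Selfox against Control it was -0.01 ± 0.406 (adjusted p = 0.993). The call of LPS against Control was lost with limma voom (-0.84, adjusted p = 0.301), with no filter on low counts (-1.42, adjusted p = 0.0548), with the 2 groups fitted alone (-1.44, adjusted p = 0.0652) and without the 5 libraries with Dbp above Arntl (-1.34, adjusted p = 0.155). It was also lost without Control 40 (-1.08, adjusted p = 0.116) or Control 52 (-1.18, adjusted p = 0.104), as it was without LPS 2, 5 or 7 (adjusted p from 0.0609 to 0.067). That of Selfox against LPS was lost without the 5 libraries with Dbp above Arntl (1.40, adjusted p = 0.123).

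Jun, the main DNA-binding partner within AP-1, lay at 46.5, 137 and 198 CPM in Selfox, at 55.8, 89.7 and 234 CPM in LPS and at 47, 60 and 238 CPM in Control. Control 40 (238 CPM) and Control 52 (157 CPM) stood far above the other 4 controls (47 to 64.5 CPM), and LPS 6 and LPS 5 were the 2 highest of LPS. Of 10 Selfox libraries 9 lay above the control median. The log2 fold change was 0.43 ± 0.392 in Selfox against Control (adjusted p = 0.44), 0.11 ± 0.417 in LPS against Control (adjusted p = 0.896) and 0.32 ± 0.371 in Selfox against LPS (adjusted p = 0.621). Without Control 40 the change of Jun in Selfox against Control was 0.88 (adjusted p = 0.0909), and without Control 49 it was 0.28 (adjusted p = 0.655). In LPS against Control its direction turned without the 5 libraries with Dbp above Arntl (-0.53, adjusted p = 0.501), among which are LPS 5 and LPS 6.

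Junb, a JUN protein that often restrains cell division, split the Selfox livers. It lay at 21, 109 and 251 CPM in Selfox, at 60.8, 143 and 194 CPM in LPS and at 33, 49.5 and 144 CPM in Control. In Selfox 3, 4, 5, 8 and 10 it stood at 164 to 251 CPM, above every control, and in Selfox 1, 2, 6, 7 and 9 at 21 to 54.6 CPM, below every LPS library. Each of the 7 LPS libraries lay above the control median. The log2 fold change was 0.91 ± 0.514 in Selfox against Control (adjusted p = 0.192), 0.92 ± 0.545 in LPS against Control (adjusted p = 0.272) and -0.01 ± 0.474 in Selfox against LPS (adjusted p = 0.992).

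Jund, the most steadily expressed JUN gene in most tissues, was the member called against Control in both models. It lay at 31.3, 49.7 and 61 CPM in Selfox, at 38.1, 51.9 and 69 CPM in LPS and at 21.8, 28.6 and 54.3 CPM in Control. Every Selfox and every LPS library lay above the control median, and 3 of 10 and 3 of 7 above Control 40, the highest control. Jund rose by 0.56 ± 0.182 on the log2 scale in Selfox against Control (adjusted p = 0.0247) and by 0.72 ± 0.195 in LPS against Control (adjusted p = 0.016), while Selfox against LPS gave -0.16 ± 0.169 (adjusted p = 0.573). Without Control 40 the 2 rises were 0.76 and 0.93 (adjusted p = 0.00197 and 0.00186). The Selfox call was lost without Control 41, 46 or 49 (adjusted p = 0.0513, 0.0555 and 0.0707), and the LPS call without the 5 libraries with Dbp above Arntl (0.70, adjusted p = 0.0519).

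**Figure D2:**
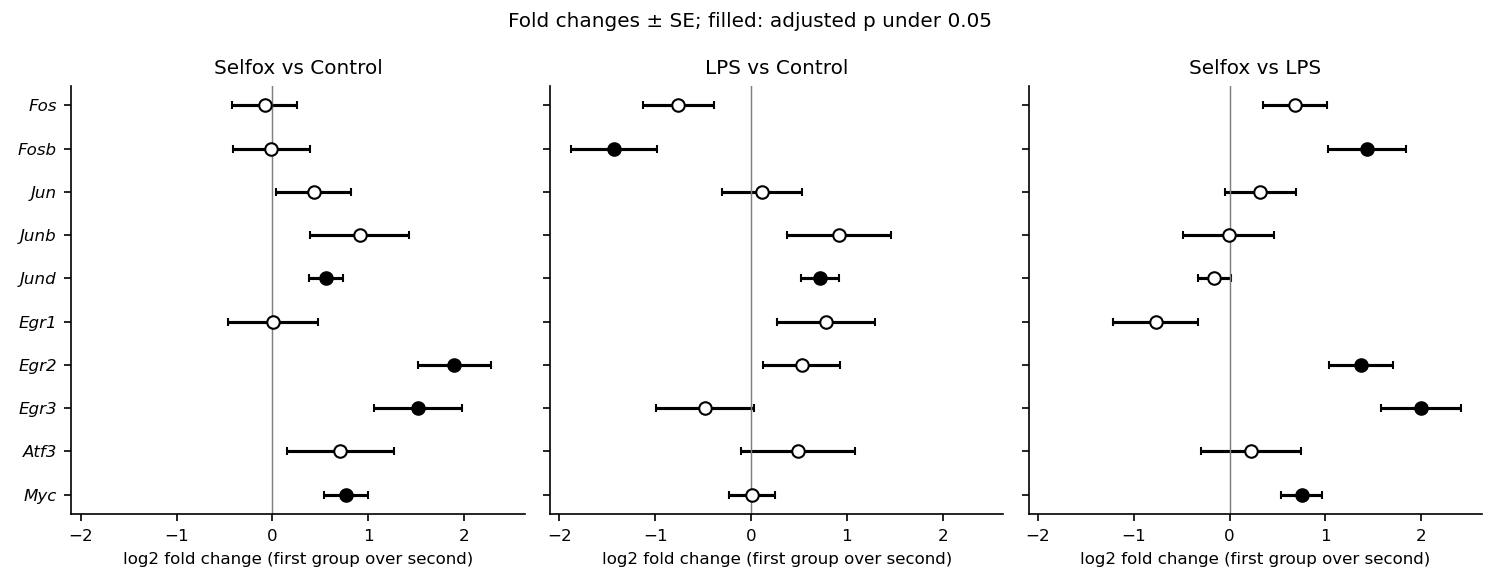
Log2 fold change ± SE of each member in Selfox against Control, LPS against Control and Selfox against LPS; filled points passed an adjusted p of 0.05. Egr2, Egr3 and Myc are filled to the right of 0 in both panels with Selfox on top, Jund in both panels against Control, and Fosb lies left of 0 in LPS against Control.

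Egr1, the EGR gene that answers growth factors and shear stress in many cells, went with Junb inside the Selfox group. It lay at 28.7, 75.5 and 213 CPM in Selfox, at 79.1, 161 and 249 CPM in LPS and at 32.6, 89.5 and 222 CPM in Control. The same 5 Selfox libraries that were high in Junb had 104 to 213 CPM of Egr1, and the other 5 had 28.7 to 47.4 CPM, below every LPS library. In Control, Control 52 (222 CPM) lay far above the other 5 (32.6 to 93.4 CPM). The log2 fold change was 0.01 ± 0.469 in Selfox against Control (adjusted p = 0.99), 0.78 ± 0.512 in LPS against Control (adjusted p = 0.326) and -0.77 ± 0.443 in Selfox against LPS (adjusted p = 0.266). Without Control 52 the change in LPS against Control was 1.22 (adjusted p = 0.137).

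Egr2, an EGR factor known from myelinating nerve sheath cells and from lymphocytes and macrophages, gave the largest rise of the members over Control. It lay at 0.572, 1.63 and 2.78 CPM in Selfox (44 to 206 counts), at 0.332, 0.625 and 1.2 CPM in LPS and at 0.188, 0.387 and 0.746 CPM in Control (6 to 28 counts). Of 10 Selfox libraries 8 lay above every control and 6 above every LPS library. Egr2 rose by 1.90 ± 0.383 in Selfox against Control (adjusted p = 0.00079) and by 1.37 ± 0.333 in Selfox against LPS (adjusted p = 0.00735), and LPS against Control gave 0.53 ± 0.402 (adjusted p = 0.4). The rise over Control was called in each of the 16 fits that left out 1 library (1.77 to 2.14). The call over LPS was lost when only libraries 1 to 7 of both groups were fitted with their replicate number as a block (1.22, adjusted p = 0.0695).

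Egr3, which acts beside Egr2 in lymphocytes, was the member with the fewest counts, 4 to 86 a library. It lay at 0.136, 0.393 and 1.18 CPM in Selfox, at 0.0766, 0.0834 and 0.252 CPM in LPS and at 0.103, 0.145 and 0.313 CPM in Control. In Selfox 9 of 10 libraries reached the 0.137 CPM that the low-count filter asks of at least 6 libraries, against 2 of 7 in LPS and 3 of 6 in Control, so Egr3 was tested through its Selfox values and had to differ; it adds nothing to the count of members called. Its log2 fold change was 1.52 ± 0.457 in Selfox against Control (adjusted p = 0.0146) and 2.0 ± 0.418 in Selfox against LPS (adjusted p = 0.00234), and with no filter 1.54 and 2.01 (adjusted p = 0.0161 and 0.00226). LPS against Control gave -0.48 ± 0.512 (adjusted p = 0.574). With the replicate block on libraries 1 to 7 the call of Selfox against LPS was lost (1.68, adjusted p = 0.0542). Among counts of 1 to 9, 66.1% to 74.9% were even numbers, depending on the library, against 51.0% to 53.7% among counts of 3 digits; with every count divided by 2 Egr2 and Egr3 were still called in both comparisons with Selfox.

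Atf3, a target of stress kinases and of the integrated stress response, spread widely among the controls. It lay at 5.12, 22.2 and 58.2 CPM in Selfox, at 10, 12.5 and 44.7 CPM in LPS and at 3.64, 6.75 and 52.4 CPM in Control. Of the controls, Control 40 had 52.4 CPM, Control 52 had 17.9 CPM and the other 4 had 3.64 to 7.39 CPM. Of 10 Selfox libraries 9, and of 7 LPS libraries 7, lay above the control median. The log2 fold change was 0.71 ± 0.56 in Selfox against Control (adjusted p = 0.364), 0.49 ± 0.593 in LPS against Control (adjusted p = 0.623) and 0.22 ± 0.52 in Selfox against LPS (adjusted p = 0.835). Without Control 40 the change in Selfox against Control was 1.65 and passed the test (adjusted p = 0.0237), and that in LPS against Control was 1.44 (adjusted p = 0.0807).

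Myc, like Egr2, was called higher in Selfox than in each of the other 2 groups, which lay together. It lay at 23.6, 66.9 and 84.8 CPM in Selfox, at 27, 39 and 49.8 CPM in LPS and at 28.2, 36.4 and 47.7 CPM in Control. Of 10 Selfox libraries 8 (52.4 CPM or more) lay above every LPS and every Control library, while Selfox 2 (28.7 CPM) and Selfox 7 (23.6 CPM) did not. Myc rose by 0.77 ± 0.227 in Selfox against Control (adjusted p = 0.0139) and by 0.75 ± 0.215 in Selfox against LPS (adjusted p = 0.0201), and LPS against Control gave 0.01 ± 0.238 (adjusted p = 0.977). The 2 calls held in every fit that left out 1 library, but not without the 5 libraries with Dbp above Arntl (0.66 and 0.58, adjusted p = 0.0607 and 0.205) nor with limma voom (adjusted p = 0.0576 and 0.091). That of Selfox against LPS was also lost when each group was limited to libraries 1 to 7, an alternative chosen after seeing the data (0.67, adjusted p = 0.12). With the replicate number of those libraries added as a block it was lost as well (0.56, adjusted p = 0.197).

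The members differed widely in how much they varied between livers of the same group. The SD of log2 CPM over all genes had a median of 0.25 in Selfox, 0.24 in LPS and 0.24 in Control. In Selfox the SD of Junb was 1.35, above that of 99.0% of all genes, and that of Egr1 was 1.13, above 98.1%. In Control the SD of Fosb was 1.5 and that of Atf3 was 1.41, above 99.2% and 98.8% of all genes, and in LPS the SD of Atf3 was 0.93, above 96.7%. The SD of Fosb in Control rests in part on Control 49, with 6 counts and a deviation of -2.44 log2 CPM from the group mean. Jund and Myc were the steadiest: the SD of Jund was 0.32 in Selfox, 0.33 in LPS and 0.46 in Control, and that of Myc was 0.64, 0.30 and 0.29. Percentiles describe the genes, with no test.

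**Figure D3:**
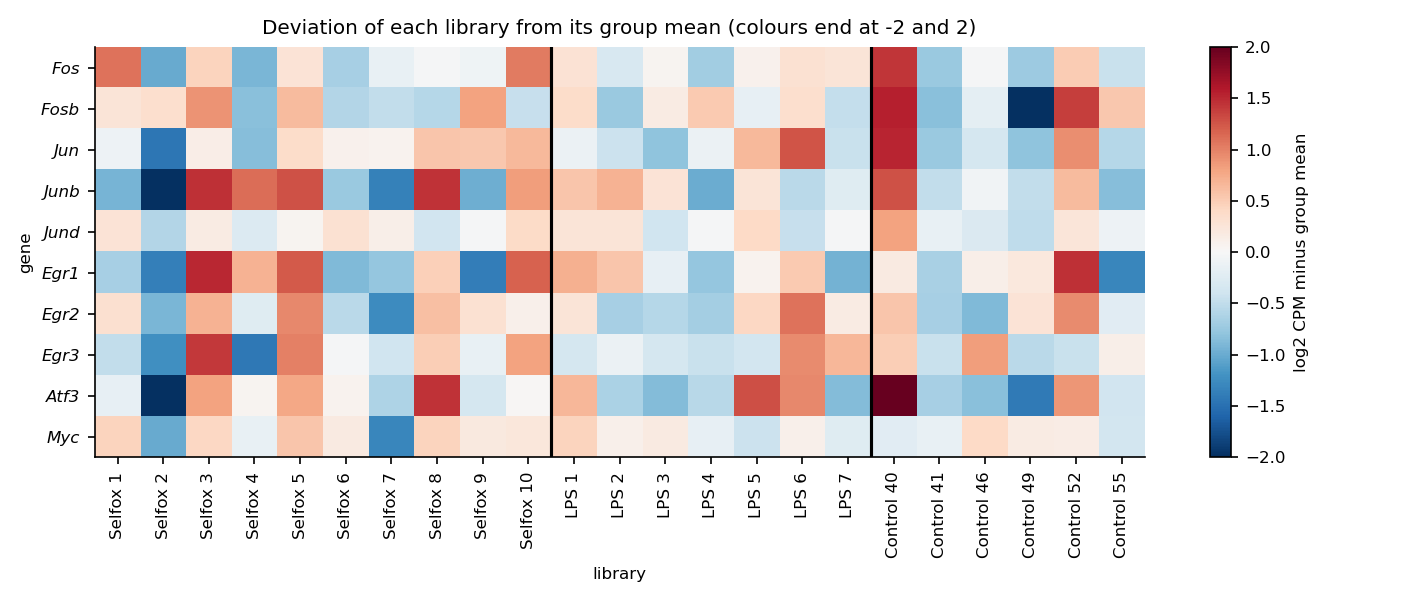
Colour gives the log2 CPM of each member in each library minus the mean of its group, red above and blue below, with groups set apart by lines. Control 40 is above its group mean in every member but Myc, Selfox 2 is below in every member but Fosb, and Junb and Egr1 share their red and blue libraries in Selfox.

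Some libraries stood high or low in many members at once, and how much of the spread they carried was not tested. Control 40 was the highest control in 6 of 10 members, and Control 52 was above the control median in 9 of 10, as was Control 40. Their summed neutrophil markers were 11.8 and 3.98 CPM, against 4 to 9.75 CPM in the other 4 controls, and their summed heat shock genes were 1440 and 1760 CPM, against 993 to 1530 CPM. In Selfox, Selfox 3 was above the group median in 10 of 10 members and the highest in 4, and Selfox 2 was the lowest in 5. In LPS, LPS 6 was the highest in 4, and LPS 4 was the lowest in 4.

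Across libraries, Fos moved together with several other members once group means had been subtracted. Of the 9 relations of Fos with the other members 5 passed a permutation test of Pearson's r with shuffling inside groups (n = 23 libraries, 100000 resamples, two-sided, adjusted over 9). The share of all genes that would pass it with Fos was not computed. Genes outside the members came closer to Fos than any member did, such as PVR (r = 0.75) and Gdf15 (0.74). Among the members the relation was closest with Jun, at r = 0.70 and Spearman's rho = 0.71 (permutation p = 0.00031 and 0.00039, adjusted 0.00279 and 0.00351). It was r = 0.62 with Jund (rho = 0.56; permutation p = 0.00409 and 0.00852, adjusted 0.0142 and 0.0192) and r = 0.62 with Atf3 (rho = 0.57; permutation p = 0.00474 and 0.00632, adjusted 0.0142 and 0.019). With Egr2 it was r = 0.57 (rho = 0.65; permutation p = 0.00783 and 0.00185, adjusted 0.0176 and 0.00832) and with Egr3 r = 0.55 (rho = 0.51; permutation p = 0.013 and 0.0271, adjusted 0.0233 and 0.0407). With Fosb (r = 0.50, rho = 0.55), Junb (0.45, 0.44), Egr1 (0.42, 0.46) and Myc (0.35, 0.41) the permutation p of r was 0.0426, 0.0556, 0.0795 and 0.133, adjusted 0.0639, 0.0715, 0.0894 and 0.133. The permutation p of rho in these 4 was 0.0184, 0.0541, 0.0427 and 0.0521, adjusted 0.0331, 0.0541, 0.0541 and 0.0541, so that Fosb passed by rho but not by r.

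Differences in r between groups were not tested. Without Control 40 and Selfox 1, the 2 libraries farthest from the median of Fos, r was 0.69 with Jun, 0.46 with Jund, 0.55 with Atf3, 0.57 with Egr2, 0.69 with Egr3, 0.39 with Fosb, 0.53 with Junb, 0.59 with Egr1 and 0.42 with Myc. Within groups, Fos and Jun gave r = 0.64 in Selfox (n = 10), 0.30 in LPS (n = 7) and 0.97 in Control (n = 6), with Control 40 and Control 52 highest in both genes. Fos and Jund gave 0.67, -0.17 and 0.91 in the same order, Fos and Atf3 0.40, 0.43 and 0.94, Fos and Egr2 0.56, 0.77 and 0.56, and Fos and Egr3 0.62, 0.52 and 0.47. Without the 5 libraries with Dbp above Arntl 3 of the 9 relations passed, those with Jun, Jund and Atf3.

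**Figure D4:**
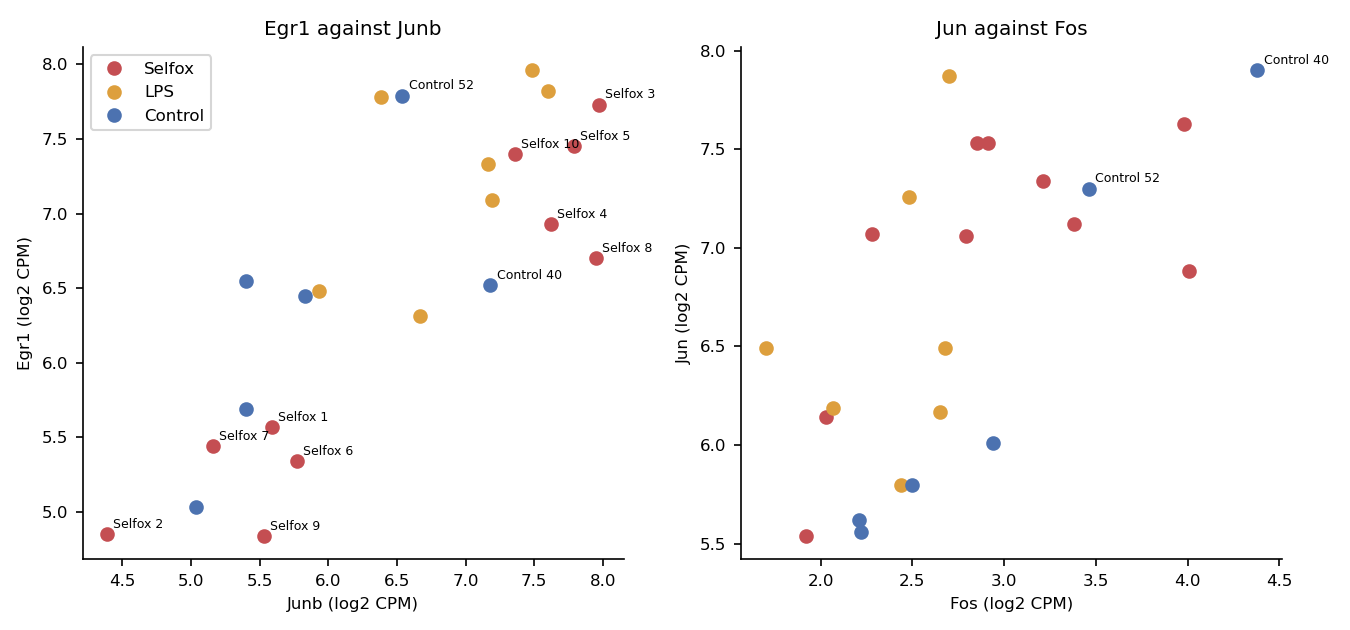
Left, log2 CPM of Egr1 against Junb, with Selfox libraries named; right, log2 CPM of Jun against Fos; each point is a library, coloured by group. Selfox 3, 4, 5, 8 and 10 lie in the upper right of the left panel and the other 5 Selfox libraries in the lower left, and Control 40 and Control 52 lie above the other controls in the right panel.

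Junb and Egr1 varied in step among the Selfox livers. In Selfox 1 to 10, in the order of their numbers, Junb stood at 48.1, 21, 251, 197, 221, 54.6, 35.8, 248, 46.3 and 164 CPM. Egr1 stood at 47.4, 28.9, 213, 122, 175, 40.5, 43.5, 104, 28.7 and 169 CPM in the same libraries. Selfox 3, 4, 5, 8 and 10 were the highest 5 for both genes. Tnfaip3, a feedback inhibitor of NF-kB named with its values known, stood at 25.7, 12.9, 353, 188, 486, 61.7, 16.6, 500, 17 and 150 CPM, and summed neutrophil markers at 4.7, 5.27, 116, 34, 52.2, 8.44, 5.12, 80.8, 4.96 and 32.9 CPM, in that order. These too were highest in Selfox 3, 4, 5, 8 and 10. The interferon-induced chemokine gene Cxcl10 was also named with its values known. It stood at 6.69, 3.41, 622, 181, 709, 66.4, 7.01, 1050, 3.58 and 52 CPM, in that order. Cxcl10 was thus highest in Selfox 3, 4, 5 and 8, with Selfox 6 (66.4 CPM) above Selfox 10 (52 CPM). In the other groups summed neutrophil markers lay at 3.71 to 10.7 CPM in LPS and 3.98 to 11.8 CPM in Control. Of the 5 tested markers 4 were called higher in Selfox than in Control, where 14.2% of all genes were. The values are a description without a test, and the part of neutrophil RNA in the levels of Junb and Egr1 was not tested.

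The genes most like each member, by Pearson's r of group-centred log2 CPM over 23 libraries among 10542 other genes with a mean of at least 1 log2 CPM over all libraries, differed between members. For Egr1 they were the immediate early genes Ier2 (r = 0.89), Zfp36, which encodes an mRNA-destabilising protein (0.83), and Ier3 (0.82). For Fos they were PVR (0.75), the stress cytokine gene Gdf15 (0.74) and Os9 (0.71). For Jund they were AABR07029581.1 (0.79), Gdf15 (0.79) and Vat1 (0.78), and for Myc RGD1560242 (0.76; 0 to 15.7 CPM, so that it had no counts in at least 1 library), Pcgf3 (0.74) and Epb41l5 (0.67). Junb, added after its values were seen, was most like Zfp36 (0.98), Ier3 (0.93) and the neutrophil chemokine gene Cxcl1 (0.92). These values share libraries and depth and carry no test.

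Of 31 other immediate early genes listed 30 were tested, and in Selfox against Control 10 rose and 2 fell, where 14.2% of all genes rose and 14.9% fell (median log2 fold change 0.60, against 0.01 over all genes). The transcriptional repressor gene Klf10 rose by 1.65 ± 0.308 (adjusted p = 0.00048), with 61.8 ± 21.5 CPM in Selfox and 19.7 ± 12.6 CPM in Control (mean ± SD, n = 10 and 6). Ctgf, a matricellular protein gene, rose by 1.31 ± 0.255 and exceeded all controls in 9 of 10 libraries (adjusted p = 0.00065) and the nuclear protein gene Csrnp1 by 0.90 ± 0.194 in 8 of 10 above all controls (adjusted p = 0.00144). LPS livers gave 3 rises and 0 falls against Control, where 7.71% of all genes rose and 6.99% fell (median log2 fold change 0.42, against 0.01 over all genes). The rises were in these same 3 genes: Klf10 by 2.11 ± 0.328 (adjusted p = 0.000389, all 7 libraries higher than any control), Csrnp1 by 1.00 ± 0.205 and Ctgf by 0.87 ± 0.266 (adjusted p = 0.00261 and 0.0308). In Selfox against LPS, where 6.86% of all genes rose and 7.64% fell, 3 of the list rose and 1 fell. Among those that rose were the kinase gene Plk2 (0.63 ± 0.149, adjusted p = 0.00623) and the cyclooxygenase gene Ptgs2 (3.23 ± 0.82, adjusted p = 0.0107). The clock gene Per1 fell (-0.65 ± 0.187, adjusted p = 0.0204). Both models share their controls, so these rises are not independent. The count of 4 in Selfox against LPS was 2 without the 5 libraries with Dbp above Arntl, and the count of 3 in LPS against Control was 6 when those 2 groups were fitted alone.

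Of 13 other AP-1 and related bZIP genes, partners and competitors of Fos and Jun, 1 was called in Selfox against Control, where 29.1% of all genes were. In LPS against Control 0 were called, and in Selfox against LPS 1, where 14.7% and 14.5% of all genes were. Whether this short list differs from those shares was not tested. In Selfox against Control Batf3 fell by 0.79 ± 0.258 (adjusted p = 0.0233) and 0 rose. For LPS against Control 0 passed by edgeR (2 at an unadjusted p under 0.05, 0 by DESeq2 and 1 by limma voom), and Batf2 was nearest (-1.01 ± 0.377, adjusted p = 0.0742). Between Selfox and LPS livers Atf4, the effector of the integrated stress response, fell by 0.60 ± 0.131 (adjusted p = 0.00334, with 123 ± 27.1 CPM in Selfox and 186 ± 40.9 CPM in LPS). By edgeR 4 of the 13 had an unadjusted p under 0.05 there. The single call in Selfox against Control was lost without Control 52, and 2 genes were called without Selfox 4 or Selfox 8; 1 was called in LPS against Control without LPS 7.

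Feedback regulators, which shorten immediate early responses, moved in both directions. Of 15 tested genes 5 rose and 2 fell in Selfox against Control, where 29.1% of all genes were called; in LPS against Control 3 were called, near the 14.7% of all genes, and in Selfox against LPS 7, where 14.5% of all genes were called. Tnfaip3 rose by 4.06 ± 0.807 (adjusted p = 0.000846; 7 of 10 libraries exceeded all controls), Nfkbia by 2.04 ± 0.419 (adjusted p = 0.00109) and the phosphatase gene Dusp2 by 2.08 ± 0.502 (adjusted p = 0.00363). Against Control, LPS livers had 2 that rose and 1 that fell: Spred1, an inhibitor of the RAS to ERK route, by 0.64 ± 0.12 (adjusted p = 0.00115), the ERK phosphatase gene Dusp6 by 1.19 ± 0.263 (adjusted p = 0.00466), both higher in 7 of 7 LPS libraries than in any control, and the inhibitor gene Spry4 by -0.68 ± 0.22 (adjusted p = 0.0387). Selfox livers set against LPS had 5 that rose and 2 that fell, with Dusp2 at 2.62 ± 0.476, Nfkbia at 1.94 ± 0.392 and Tnfaip3 at 3.39 ± 0.723 (adjusted p = 0.000801, 0.00219 and 0.0033). Without the 5 libraries with Dbp above Arntl 3 genes of this list were called in that comparison.

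Upstream kinases and factors of the members changed by small amounts. Of 24 listed genes 23 were tested, and in Selfox against Control 4 rose and 3 fell (median log2 fold change -0.02), a share near the 29.1% of all genes called. The factor gene Elk1, a partner of serum response factor at CArG boxes, fell by 0.28 ± 0.0618 (adjusted p = 0.00168), the kinase gene Map2k2 fell by 0.24 ± 0.0628 (adjusted p = 0.00582) and Braf rose by 0.29 ± 0.0773 (adjusted p = 0.00702). No call was made by edgeR in LPS against Control, 0 of 23 (7 at an unadjusted p under 0.05, 2 by DESeq2 and 2 by limma voom), where 14.7% of all genes were called. The kinase gene Rps6ka1 was nearest (0.33 ± 0.112, adjusted p = 0.0502). In Selfox against LPS 1 rose and 3 fell, where 6.86% of all genes rose and 7.64% fell. Braf at 0.34 ± 0.0728, Elk4 at -0.21 ± 0.055 and the serum response factor gene Srf at -0.37 ± 0.114 (adjusted p = 0.00303, 0.0101 and 0.0284) were the first 3 by adjusted p. This list depended on single libraries: without LPS 5, LPS 6 or LPS 7 the 4 calls of Selfox against LPS became 2, and in LPS against Control 1 to 3 genes were called without LPS 3, LPS 4, LPS 6, Control 40 or Control 55.

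**Figure D5:**
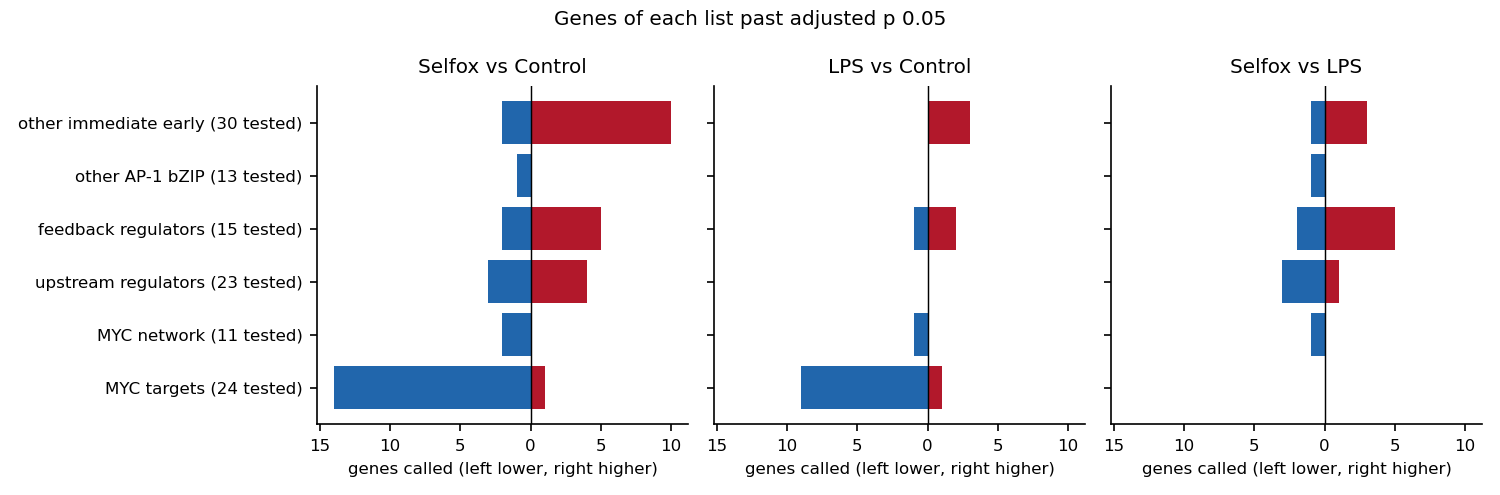
Bars count the genes of each list past an adjusted p of 0.05, higher to the right and lower to the left, in the 3 comparisons, with the number of genes tested in brackets. The MYC targets stand to the left in both comparisons with Control (14 and 9 lower, 1 higher in each) and hold 0 calls in Selfox against LPS.

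Of 14 listed genes of the MYC network 11 were tested, and 2 were called in Selfox against Control, a smaller share than the 29.1% of all genes (median log2 fold change 0.01). Max, the obligate partner of MYC, fell by 0.34 ± 0.0651 in Selfox against Control (adjusted p = 0.000456; 22.1 ± 2.17 CPM in Selfox and 28.1 ± 2.43 CPM in Control) and by 0.21 ± 0.0706 in LPS against Control (adjusted p = 0.0433, 1 of 7 below every control). The MAX-binding repressor gene Mnt fell by 0.48 ± 0.127 in Selfox against Control (adjusted p = 0.00708) and by 0.64 ± 0.121 in Selfox against LPS (adjusted p = 0.000952). The MYC network list held no other call, so that 1 of 11 was called in LPS against Control and 1 of 11 in Selfox against LPS. Of all genes 14.7% and 14.5% were called there. Leaving out 1 library ended the call of Max in LPS in 9 of 13 cases (LPS 1, 3, 4, 5 or 6, Control 41, 46, 49 or 52), and without Control 55 the list held 3 calls there and 4 in Selfox against Control.

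Of 24 known MYC targets, most of them genes of ribosome production, 14 fell and 1 rose in Selfox against Control (median log2 fold change -0.39, against 0.01 over all genes), where Myc itself rose and 14.9% of all genes fell. The ribosomal RNA processing genes Rrp9, Bop1 and Nolc1 fell by 0.88 ± 0.127, 0.55 ± 0.0901 and 0.74 ± 0.126 (adjusted p = 3.32e-05, 0.000131 and 0.000173), Rrp9 and Nolc1 in 10 of 10 Selfox libraries below every control. In LPS livers, where Myc gave 0.01 ± 0.238 against Control, 9 fell and 1 rose (median -0.40; 6.99% of all genes fell), with Bop1 at -0.60 ± 0.0981, the pyrimidine synthesis gene Cad at -0.66 ± 0.115 and Rrp9 at -0.61 ± 0.139 (adjusted p = 0.000465, 0.000696 and 0.00521). The gene that rose in both was the glycolytic enzyme gene Eno1 (0.32 ± 0.0906 and 0.32 ± 0.097, adjusted p = 0.0099 and 0.0296), named after its values were seen. In Selfox against LPS, where Myc rose and 14.5% of all genes were called, 0 of the 24 passed by edgeR (4 at an unadjusted p under 0.05, 0 by DESeq2 and 0 by limma voom). The nucleolin gene Ncl was nearest (-0.14 ± 0.058, adjusted p = 0.108), and 1 passed without LPS 4. Summed heat shock genes stood at 758 to 982 CPM in Selfox, 877 to 971 CPM in LPS and 993 to 1760 CPM in Control. In each model 3 of the 8 tested were called lower than in Control. Their relation to the MYC targets and their part in these falls were not tested.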

How the data were processed

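The authors deposited 1 table of raw read counts, whole numbers for each gene in 23 libraries. Per the submitters' processing notes, the tools were FastQC, Trim Galore, STAR 2.7.9a and featureCounts of Subread 2.0.3. Per the labels, the library kit keeps strand; the sources used here give neither build, annotation nor the strand setting of counting, which leaves genes that overlap or lie antisense uncertain. All 23 libraries were used.

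filterByExpr (minimum count 10) kept 15079 of 21753 genes with any count. One edgeR 4.0.16 quasi-likelihood model with TMM factors, robust and with no covariate, covered the 3 groups (biological coefficient of variation 0.235), and p-values were adjusted by Benjamini-Hochberg over every gene tested. The SE was taken as |log2 fold change| over the root of the F statistic. CPM used TMM-scaled totals, and log2 CPM added a prior count of 2. The steps were tested on simulated data. R was 4.3.3; other tests came from DESeq2 1.42.0 and from limma 3.58.1 (voom). Older symbols were matched through RefSeq synonyms (Ccn1 as Cyr61, Ccn2 as Ctgf). Named genes were the 10 members, the first 3 of each list by adjusted p (the nearest where none passed), and the 3 genes most like Fos, Egr1, Jund and Myc; exceptions are marked. Members, lists and alternatives were chosen with earlier results of these data known. Besides those 2 tools, alternatives changed the factors (RLE, upper quartile), the filter (none, or a minimum count of 50), the groups fitted (2 alone), the libraries (each left out, or the 5 with Dbp above Arntl), and the counts (thinned to equal depth, or divided by 2); others added a replicate block or a prior count of 0.5.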

Additional observations from a re-analysis of the deposited data

Results flagged for a closer look

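Each member was looked at in each of the 3 groups, 30 sets of libraries, for a library far from the others by Dixon's ratio of the gap to the range. Chance flags about 1 in 20 sets if values are normally spread, and the ratio was taken on CPM, not on log2 CPM. It marked 2 of the 30 sets, both in Control, which is near what chance gives. Atf3 stood at 52.4 CPM in Control 40, against 3.64 to 17.9 CPM in the other controls, with a ratio of 0.707 against a critical 0.625. Egr1 stood at 222 CPM in Control 52, against 32.6 to 93.4 CPM in the other controls, with a ratio of 0.679.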

How the results depend on the processing

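Between Selfox and Control the 4 members called, Egr3 among them, became 3 to 5 when 1 library was left out. In LPS against Control the 2 called became 1 with no filter, with limma voom or with those 2 groups fitted alone, 0 without the 5 libraries with Dbp above Arntl, and 1 to 2 with a library left out; with a library left out, genes called there ranged from 1409 (without Control 49) to 2723 (without Control 55), against 2217 as reported, and limma voom called 3119. In Selfox against LPS the 4 called, again with Egr3, became 2, and the 2187 genes called became 1434, without the 5 libraries with Dbp above Arntl. The relations of Fos that passed became 3 of 9 in place of 5 without those libraries. LPS and Selfox share replicate numbers 1 to 7, but same-numbered libraries did not deviate together (r from -0.06 to 0.16); with that replicate block, which also leaves out Selfox 8 to 10, 1 member and 1259 genes were called in Selfox against LPS, against 3 members and 1617 genes in the same 14 libraries with no block. The causes were not tested.

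Members without a call in the comparison changed direction as follows. In Selfox against Control, Fos was 0.08 with voom and -0.23 to 0.36 with a library left out. Fosb was 0.000294 with RLE, 0.01 with no filter, 0.00769 with DESeq2, 0.56 with voom, 0.06 without the 5 libraries, 0.03 thinned and -0.24 to 0.35 with a library left out. Egr1 was -0.01 with upper-quartile factors, -0.23 with voom, -0.18 without the 5 libraries and -0.19 to 0.46 with a library left out. In LPS against Control without the 5 libraries, Jun was -0.53, Egr2 -0.07 and Atf3 -0.13; with a library left out Jun was -0.19 to 0.56 and Myc -0.07 to 0.1, and Myc was -0.01 with upper-quartile factors and -0.00269 thinned. In Selfox against LPS, Junb was 0.00407 with counts divided by 2 and -0.17 to 0.12 with a library left out, and Atf3 -0.00729 to 0.49. Control libraries had the fewest counts, 6 to 28 for Egr2, which limits precision for the low members.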
